A study of Homo sapiens with 6 samples.

Results

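The RNA of 10 genes that switch off mitogen-activated protein kinase (MAPK) signaling was followed in HK-2 cells left untreated or exposed to TGF-β1. The genes were DUSP1, DUSP4, DUSP5, DUSP6, DUSP10, SPRY1, SPRY2, SPRY4, SPRED1 and SPRED2. They were picked by gene name, taking the entry on a primary chromosome, from 41497 named entries, and each had 1 entry. With TGF-β1, 2 of the 9 that could be tested fell and 2 rose, a share close to the 44.3% of all genes tested that passed. SPRY1 fell by 72.4% and DUSP5 fell by 43.4%, whereas DUSP1 rose by 47.2% and DUSP10 by 24.6%. DUSP6, SPRY2, SPRY4, SPRED1 and SPRED2 did not pass the test, and DUSP4 had too few reads to be tested.

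MAPK cascades carry signals from receptors at the cell surface to the nucleus through kinases that phosphorylate each other in turn. The ERK branch is started by RAS and answers mainly to growth factors, and the p38 and JNK branches answer mainly to stress and cytokines. Active ERK switches on genes whose products then damp the cascade, so that the RNA of these genes is often used as a readout of past ERK signaling. Dual-specificity phosphatases (DUSPs) remove phosphate from both the threonine and the tyrosine that activate a MAPK. Sprouty (SPRY) and Sprouty-related (SPRED) proteins act further up, between the receptor and RAF. TGF-β1, the cytokine most closely tied to kidney fibrosis, signals through SMAD proteins and can also engage MAPK cascades.

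HK-2 is an immortalised line of human kidney proximal tubule cells, labelled wild type in all libraries. The series held 3 control libraries from untreated cells and 3 libraries from cells given TGF-β1, all at 24 h, made from poly(A) RNA. Per the labels the line was grown with fetal bovine serum, whereas the methods of the study describe TGF-β as given without serum. The methods give doses of TGF-β for several assays, but neither they nor the labels tie one to these libraries. They also do not say whether the control cells had serum, so a difference in serum, if there was one, and the cytokine cannot be told apart. The labels do not say whether the 3 libraries of a group came from separate cultures, so the p-values measure only the spread between these libraries. Cells were measured in bulk, where a change in RNA per cell and a change in the mix of cells cannot be told apart.

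The counts assigned to named genes ranged from 21.9 to 26.8 megacounts per library, and 14860 entries had enough reads to be tested. Of these, 44.3% passed the test, 22.2% as higher and 22.1% as lower with TGF-β1. Among genes chosen to check the cytokine response, SMAD7, SKIL, TGFBI and COL1A1 rose, by 1.08 to 3.30 on the log2 scale. TGF-β1 replicate 1 stood apart from the other TGF-β1 libraries on the second principal component. Of 11 proximal tubule and epithelial markers, 6 had a mean above 1 CPM, the count of a gene scaled to the size of its library. The keratins KRT8 and KRT18 and the kidney transcription factor PAX8 were abundant, whereas the brush border markers LRP2, at 0 reads in every library, and ANPEP, at 3 reads in each group, were absent or nearly so. The summed level of these 11 markers was 979 to 1045 CPM in control and 1191 to 1377 CPM with TGF-β1. The 4 fibroblast markers summed to 58.8 to 68.4 CPM in control and 56.6 to 57.7 CPM with TGF-β1, most of it LUM. PDGFRA and DCN were below 1 CPM in both groups, and PDGFRB went from 0.551 to 5.79 CPM. The 4 endothelial markers summed to at most 1.60 CPM in control and 0.0384 CPM with TGF-β1. The 4 leukocyte markers summed to 92.3 to 102 CPM in control and 61.0 to 84.6 CPM with TGF-β1, nearly all of it CD68, with CD3E at 0 reads. The part of these markers in the results below was not tested.

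Sequence upstream of the start is shown for 3 members: DUSP1, which rose most among the 9 tested members, SPRY1, which fell most among them, and DUSP6, the classical reporter of ERK activity, which did not pass the test. Each is the 250 bases before a RefSeq transcription start on GRCh38.p14, read 5′ to 3′ on the strand of the gene. The DUSP1 window lies at chr5:172771196-172771445 on the minus strand. The SPRY1 window lies at chr4:123396545-123396794 on the plus strand and precedes the first of 2 listed starts. The DUSP6 window lies at chr12:89352502-89352751 on the minus strand. Capitals in the DUSP1 sequence mark a cyclic AMP response element, TGACGTCA, from 125 to 118 bases before the start, and a TATA box, TATAAA, from 30 to 25 bases before it.
DUSP1: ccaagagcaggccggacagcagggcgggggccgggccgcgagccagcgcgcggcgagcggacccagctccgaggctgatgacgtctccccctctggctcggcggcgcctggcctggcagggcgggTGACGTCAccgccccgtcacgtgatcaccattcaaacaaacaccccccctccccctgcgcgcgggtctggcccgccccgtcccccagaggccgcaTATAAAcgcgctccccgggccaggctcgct
SPRY1: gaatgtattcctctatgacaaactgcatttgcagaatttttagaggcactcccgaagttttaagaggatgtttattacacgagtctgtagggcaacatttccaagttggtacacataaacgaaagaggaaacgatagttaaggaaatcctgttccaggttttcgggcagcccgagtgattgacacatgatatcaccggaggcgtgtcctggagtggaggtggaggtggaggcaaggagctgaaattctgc
DUSP6: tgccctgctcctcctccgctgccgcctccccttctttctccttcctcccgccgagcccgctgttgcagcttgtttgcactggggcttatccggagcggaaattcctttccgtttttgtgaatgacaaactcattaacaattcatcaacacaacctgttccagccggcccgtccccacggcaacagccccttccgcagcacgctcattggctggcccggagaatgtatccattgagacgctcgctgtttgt

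Of the 10 genes, 8 were searched, with 13 windows in all. DUSP4 was left out of the search, and DUSP5 had no listed start. The windows were searched on both strands for TGACGTCA, for the AP-1 site TGANTCA, for the ETS core CCGGAA, for the SMAD palindrome GTCTAGAC, for the shorter SMAD motif CAGACA, for the GC box GGGCGG, for the CArG box and for TATAAA. Among 35116 windows of the same length before listed starts of all genes, 1.65% held TGACGTCA and 10.7% held TATAAA. DUSP1 was the only one of the 8 with TGACGTCA, and it also held 4 GC boxes, a motif found in 42.6% of all windows and left in lower case above. Its GC boxes and the capitalised motifs do not overlap. TATAAA also lay before the second SPRED2 start, from 31 to 26 bases before it. GC boxes were also present in windows of DUSP10, SPRY2, SPRY4 and SPRED1 and in that of the second SPRY1 start. The SPRY1 and DUSP6 windows printed above held none of the 8 motifs. The second SPRY1 start and the first SPRY2 start each had an ETS core, CCGGAA, in their windows, as did 14.5% of all windows. None of the 13 windows searched held the AP-1 site, the SMAD palindrome, the shorter SMAD motif or the CArG box. These occurred in 6.57%, 0.182%, 13.6% and 1.16% of all windows. All matches describe the letters only, and read counts per gene do not tell which start was used.

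The question put to the members was which of them changed in RNA level after 24 h of TGF-β1. Levels were scaled as CPM with the trimmed mean of M-values (TMM), and changes were tested with the quasi-likelihood test of edgeR with Benjamini-Hochberg adjustment over all 14860 entries at a threshold of 0.05. A log2 fold change of 1 is a doubling, and all fold changes are TGF-β1 relative to control. Of the 10 members 9 were tested and 4 passed, 2 as higher and 2 as lower, beside 44.3% of all entries tested. The median log2 fold change of the 9 tested members was 0.08, beside 0.0063 over all entries. Ignoring direction, their median change was 0.23, beside 0.25 over all entries. Of the 9 tested members only SPRY1 both passed and changed at least 2-fold, as did 9.06% of all entries tested. The CPM ranges of the groups did not overlap for 6 of the 9 tested members, beside 55.6% of all entries tested.

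**Figure D1:**
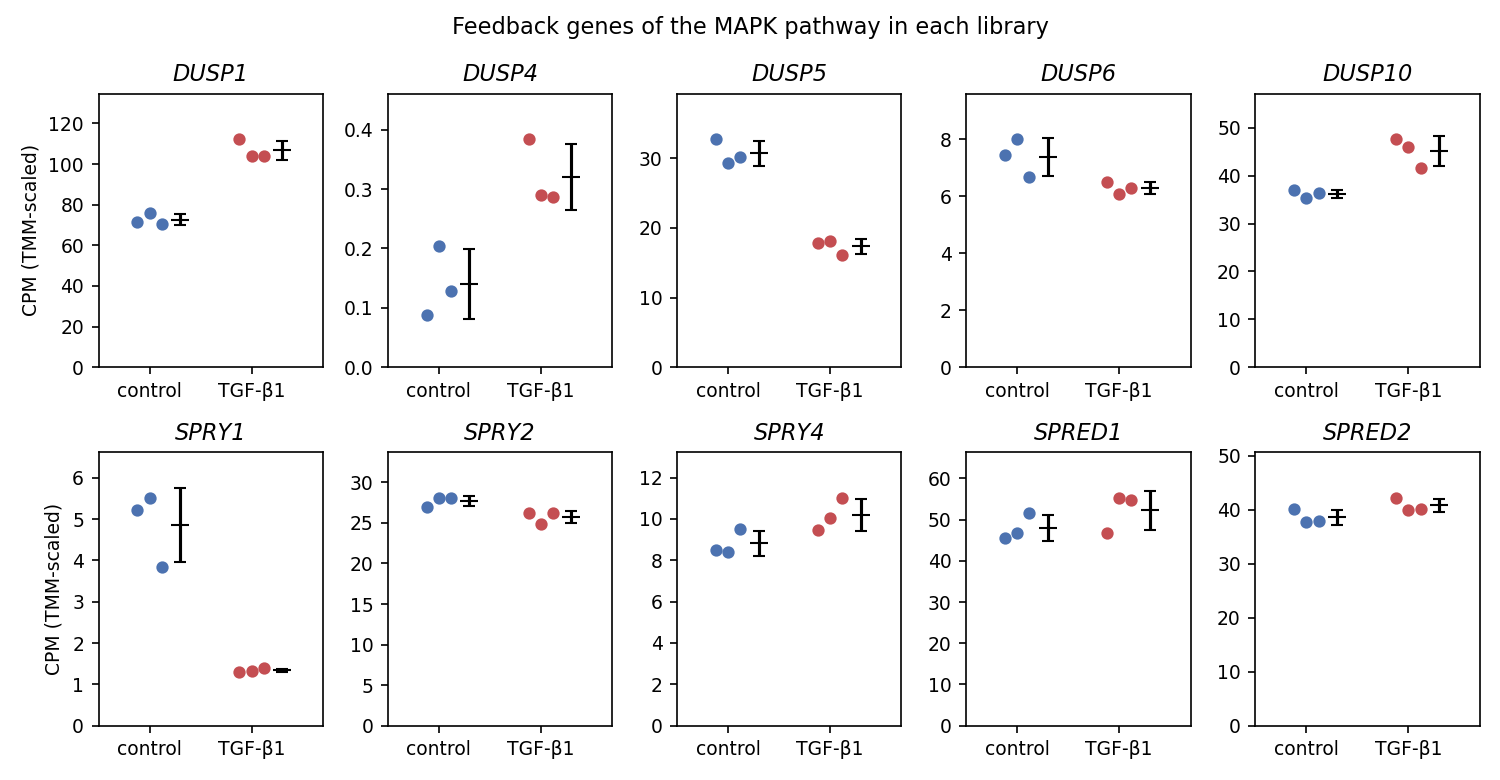
TMM-scaled CPM of each of the 10 members (vertical axes, each starting at 0) in the 3 control (blue) and 3 TGF-β1 (red) libraries, with the mean and SD as black bars. The TGF-β1 points lie above all control points for DUSP1, DUSP4 and DUSP10 and below them for DUSP5, DUSP6, SPRY1 and SPRY2, and the groups overlap for SPRY4, SPRED1 and SPRED2.

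DUSP1, DUSP4 and DUSP5 are inducible phosphatases of the nucleus. DUSP1, an immediate early gene whose product acts on p38 and JNK as well as ERK, measured 71.6, 75.7 and 70.3 CPM in the control libraries and 112, 104 and 104 CPM with TGF-β1. All 3 TGF-β1 libraries lay well above the highest control. Its mean was 72.6 ± 2.83 CPM in control and rose to 107 ± 4.70 CPM (SD, n = 3 each), with a log2 fold change of 0.56 ± 0.06 (SE; edgeR quasi-likelihood, adjusted p = 1.8e-05; 95% interval 0.43 to 0.68). The gene (gene-DUSP1) spans chr5:172768096-172771195 on the minus strand, and 1361 of the 14860 entries had a higher log2 fold change.

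DUSP5 (gene-DUSP5, chr10:110497907-110511533, plus strand), which acts on ERK alone and holds it in the nucleus, went the other way. It measured 32.7, 29.3 and 30.2 CPM in control and 17.8, 18.2 and 16.1 CPM with TGF-β1. The groups were far apart relative to their spread. Its control mean of 30.7 ± 1.80 CPM fell to 17.4 ± 1.08 CPM, and the log2 fold change was -0.82 ± 0.07 (edgeR, adjusted p = 5.8e-06; 95% interval -0.98 to -0.66).

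DUSP4 (gene-DUSP4, minus strand of chromosome 8), a phosphatase of ERK, p38 and JNK, was barely present. The control libraries held 2, 5 and 3 of its reads and the TGF-β1 libraries 10, 7 and 6, or 0.140 ± 0.0589 and 0.320 ± 0.0555 CPM. The read counts did not overlap between the groups. Pooled over libraries, 10 reads of 67.9 megacounts in control and 23 reads of 73.8 megacounts with TGF-β1 gave a ratio of 2.12, with an exact 95% interval of 0.968 to 4.98 that covers counting error only. The exact two-sided permutation test over the 6 libraries gave p = 0.10, the smallest value that 3 against 3 allows. Without the filter on low counts the fitted log2 fold change was 1.17 ± 0.58 (edgeR, adjusted p = 0.137).

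DUSP6 and DUSP10 work largely outside the nucleus or between compartments, and differ in substrate. DUSP6 (gene-DUSP6, chr12:89347235-89352501, minus strand), the cytoplasmic phosphatase of ERK, measured 7.44, 8.01 and 6.69 CPM in control and 6.49, 6.08 and 6.30 CPM with TGF-β1. The lowest control lay just above the highest TGF-β1 library. The log2 fold change of -0.23 ± 0.11 did not pass (edgeR, adjusted p = 0.118). Its 95% interval ran from -0.48 to 0.02.

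DUSP10 (gene-DUSP10, chr1:221701424-221742091, minus strand), which prefers p38 and JNK over ERK, measured 37.0, 35.3 and 36.4 CPM in control and 47.7, 46.1 and 41.6 CPM with TGF-β1. All TGF-β1 libraries lay above all controls, replicate 3 by the least. From 36.2 ± 0.851 CPM in control the mean rose to 45.1 ± 3.12 CPM, and the log2 fold change was 0.32 ± 0.07 (edgeR, adjusted p = 0.00265; 95% interval 0.17 to 0.46). The entry LOC105372945 lies opposite DUSP10 without shared exon bases and had 21 reads in control and 30 with TGF-β1, against 2553 and 3227 for DUSP10.

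The Sprouty genes encode membrane-associated inhibitors of receptor tyrosine kinase signaling. SPRY1 (gene-SPRY1, chr4:123396795-123403760, plus strand), known in kidney for restraining RET signaling in the growing ureteric bud, showed the largest change of the 9 tested members. It measured 5.23, 5.52 and 3.84 CPM in control and 1.31, 1.32 and 1.38 CPM with TGF-β1, from 118, 135 and 90 reads and 34, 32 and 29 reads. The lowest control was far above the highest TGF-β1 library, and the TGF-β1 libraries were nearly equal.

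From 4.86 ± 0.900 CPM in control SPRY1 fell to 1.34 ± 0.0414 CPM, and the log2 fold change was -1.86 ± 0.18 (edgeR, adjusted p = 1.2e-05; 95% interval -2.26 to -1.46). Of the 14860 entries tested, 238 had a lower log2 fold change. A fall of at least 2-fold that passed the test was found for 5.38% of all entries. Leaving out single libraries, the log2 fold change of SPRY1 ranged from -2.0 to -1.76.

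SPRY2 (gene-SPRY2, chr13:80335976-80341126, minus strand), the most studied family member, measured 27.0, 28.1 and 28.1 CPM in control and 26.2, 24.9 and 26.2 CPM with TGF-β1. The groups did not overlap but lay close together. Its log2 fold change of -0.11 ± 0.06 did not pass (edgeR, adjusted p = 0.179), with a 95% interval of -0.24 to 0.03.

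SPRY4 (gene-SPRY4, chr5:142310430-142325021, minus strand), a Sprouty that also binds the kinase TESK1, measured 8.51, 8.42 and 9.50 CPM in control and 9.49, 10.0 and 11.0 CPM with TGF-β1. The highest control just exceeded the lowest TGF-β1 library. The log2 fold change of 0.21 ± 0.10 did not pass (edgeR, adjusted p = 0.111; 95% interval -0.01 to 0.43). The noncoding SPRY4-IT1 shares 697 exon bases with SPRY4 on the same strand and was listed at 0 reads in all libraries, so reads from it cannot be told apart from those of SPRY4.

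SPRED1 and SPRED2 bind RAS-pathway proteins at the membrane, and SPRED1 brings the RAS inactivator neurofibromin there. SPRED1 (gene-SPRED1, chr15:38252087-38357249, plus strand) measured 45.5, 46.8 and 51.5 CPM in control and 46.7, 55.3 and 54.7 CPM with TGF-β1. The groups overlapped through TGF-β1 replicate 1, which lay among the controls. The log2 fold change of 0.12 ± 0.08 did not pass (edgeR, adjusted p = 0.229; 95% interval -0.05 to 0.30). Without TGF-β1 replicate 1 it was 0.19 and passed (edgeR, adjusted p = 0.0215).

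SPRED2 (gene-SPRED2, chr2:65307425-65432599, minus strand) measured 40.1, 37.7 and 37.9 CPM in control and 42.2, 40.0 and 40.2 CPM with TGF-β1. The groups overlapped. Its log2 fold change of 0.08 ± 0.06 did not pass (edgeR, adjusted p = 0.291; 95% interval -0.05 to 0.21).

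**Figure D2:**
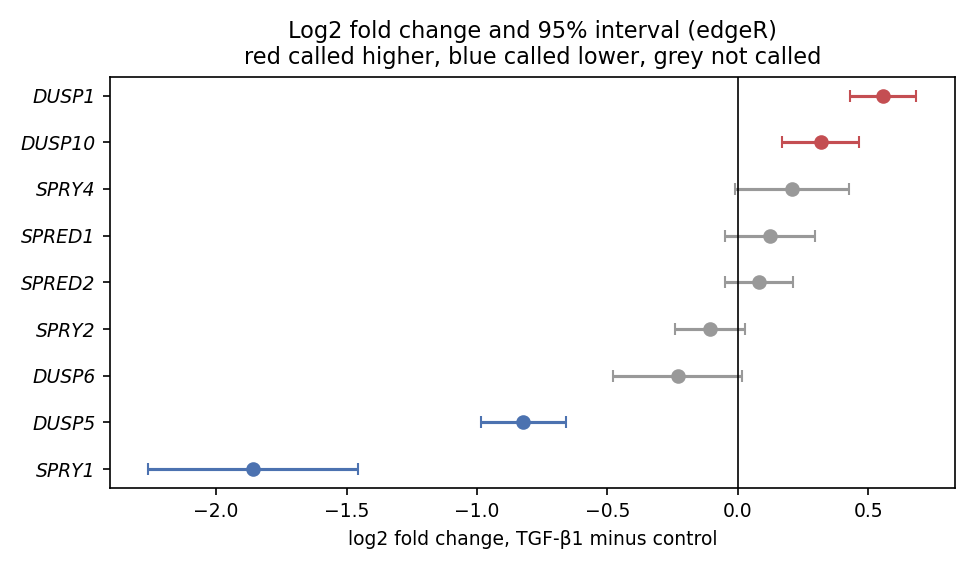
Log2 fold change (TGF-β1 minus control, horizontal axis) of the 9 tested members with 95% intervals from the edgeR fit, in red where called higher, blue where called lower and grey where not called. The intervals of DUSP1 and DUSP10 lie above 0, those of DUSP5 and SPRY1 lie below 0, and the other 5 include 0.

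The split of the members depended in part on how libraries were scaled. With scaling by total counts alone, which ignores differences in composition, the median of all entries moved by -0.11 on the log2 scale to -0.10. DUSP6 (-0.34, adjusted p = 0.0304) and SPRY2 (-0.21, adjusted p = 0.0165) then also passed as lower in edgeR, which made 2 members higher and 4 lower. Over all entries the split went from 3294 higher and 3288 lower to 2134 higher and 4590 lower. DUSP1, DUSP5, DUSP10 and SPRY1 passed in the same direction under both scalings.

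Scaling drops out when members are set against each other within a library, so log2 ratios of read counts were compared for 7 pairs of related members. The ratio of SPRY1 to SPRY2 was -2.53 ± 0.30 in control and -4.27 ± 0.05 with TGF-β1 (log2, mean ± SD, n = 3 each), a shift of -1.74. Among the ERK phosphatases, DUSP5 to DUSP6 went from 2.06 ± 0.17 to 1.46 ± 0.11, a shift of -0.60. For both pairs every TGF-β1 library lay below every control.

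DUSP1 to DUSP6 went from 3.30 ± 0.08 to 4.09 ± 0.03, a shift of 0.79 toward the phosphatase of broader substrate range. DUSP4 to DUSP6 went from -5.80 ± 0.56 to -4.31 ± 0.20, resting on the few DUSP4 reads. DUSP10 to DUSP1 went from -1.0 ± 0.09 to -1.24 ± 0.07, lower in each TGF-β1 library than in any control. SPRY4 to SPRY2 shifted by 0.32 and SPRED1 to SPRED2 by 0.04.

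CPM ranges of single genes did not overlap for 55.6% of all entries tested, and no such share was computed for pairs of genes. DUSP6, DUSP1 and SPRY2 each recur in several of the 7 pairs, so the pairs are not separate. The ranges of the ratio did not overlap for 6 of the 7 pairs, SPRED1 to SPRED2 being the exception. In each of the 6 the exact two-sided permutation test gave p = 0.10, the smallest it can give with 3 libraries against 3, and 0.117 after Benjamini-Hochberg adjustment over the 7 pairs. For SPRED1 to SPRED2 the exact p was 0.90, and its shift ranged from -0.02 to 0.15 when single libraries were left out. The design could therefore not bring any pair below 0.05.

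**Figure D3:**
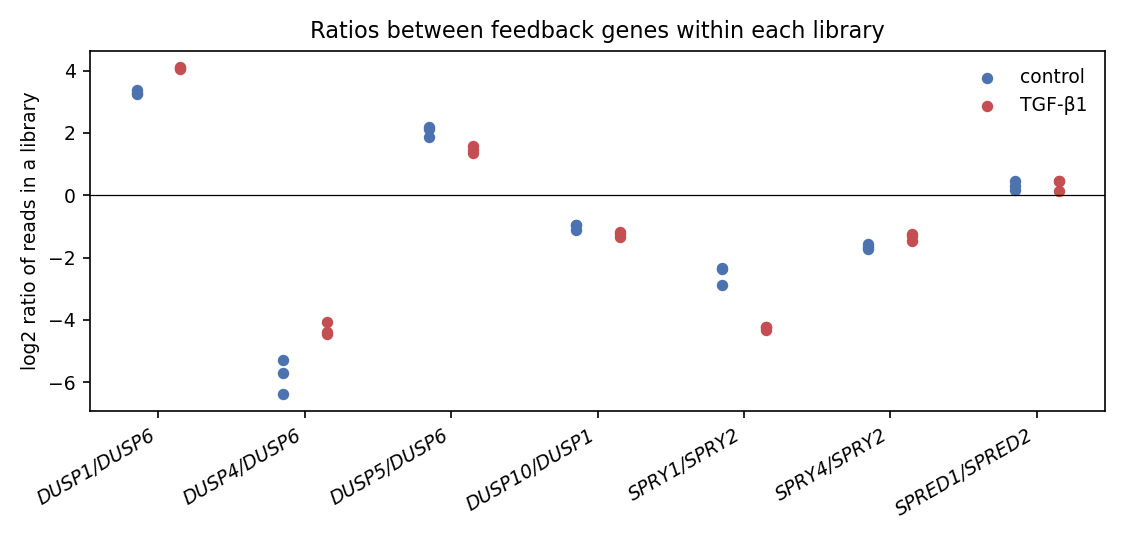
Log2 ratio of the read counts of a pair of members in each library (vertical axis) for 7 pairs (horizontal axis), with control in blue and TGF-β1 in red. SPRY1/SPRY2 shows the largest downward shift, from a mean of -2.53 to -4.27, and only SPRED1/SPRED2 overlaps between the groups.

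Levels of different genes were compared per gene length, as deposited TPM, a length-scaled share of the RNA of a library, without a test. DUSP1 had the highest level of the 10 members in both groups, 120 ± 4.46 TPM in control and 163 ± 2.70 TPM with TGF-β1 (SD, n = 3 each). It made up 46.8% ± 1.23 of the summed TPM of the members in control and 59.7% ± 0.979 with TGF-β1. In control it was followed by DUSP5 at 41.3 ± 2.00 TPM, SPRY2 at 26.7 ± 1.06, SPRED2 at 20.6 ± 0.471 and SPRED1 at 17.9 ± 1.52 TPM. Below these lay DUSP10 at 14.5 ± 0.372 TPM, DUSP6 at 6.77 ± 0.542, SPRY1 at 4.59 ± 0.791, SPRY4 at 4.10 ± 0.350 and DUSP4 at 0.0643 ± 0.0270 TPM. In this order only the neighbours SPRY1 and SPRY4 overlapped between their libraries.

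With TGF-β1 the order changed at 2 places. SPRY2, at 22.8 ± 0.560 TPM, and DUSP5, at 21.5 ± 1.40 TPM, overlapped and had traded ranks. SPRY4 at 4.37 ± 0.419 TPM now lay clear of SPRY1 at 1.17 ± 0.0594 TPM, where in control they had overlapped. SPRED1 at 18.0 ± 2.14 TPM and DUSP10 at 16.6 ± 0.985 TPM overlapped, whereas SPRED2, DUSP6 and DUSP4 kept their ranks at 20.1 ± 0.0766, 5.32 ± 0.0647 and 0.134 ± 0.0193 TPM.

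Summed TPM of the 5 phosphatases went from 183 ± 2.74 in control to 206 ± 4.18 with TGF-β1. That of the 5 Sprouty and SPRED genes went from 73.9 ± 2.02 to 66.4 ± 2.82. Deposited TPM is not scaled by TMM, so changes in it between the groups also hold differences in composition. SPRED2, for example, went from 20.6 to 20.1 TPM but had a log2 fold change of 0.08 in edgeR. The part of scaling in the change of the sums was not tested. The phosphatase sum followed DUSP1, whose gain exceeded the loss of DUSP5. The share of DUSP5 in the TPM of all members went from 16.1% to 7.89%. The rank order by deposited FPKM was the same as by TPM in both groups.

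**Figure D4:**
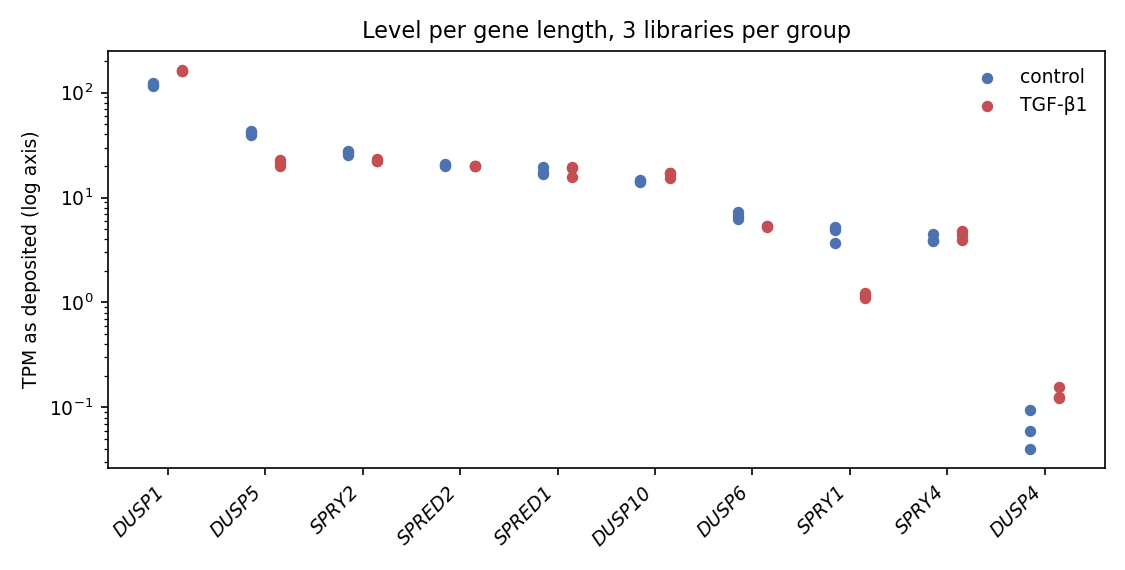
Deposited TPM (vertical log axis) of the 10 members in each library, ordered by their control mean, with control in blue and TGF-β1 in red. DUSP1 is highest in both groups, at a mean of 120 and 163 TPM, and DUSP4 lies below 1 TPM in all libraries.

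The remaining genes of these pathways were read from the same fit, in lists chosen with earlier results of these data known. Beside each count stands the share of all entries tested that passed, 44.3%. Among 5 other MAPK phosphatases, 3 could be tested and 1 passed. DUSP7, a cytoplasmic ERK phosphatase close to DUSP6, rose by 0.37 ± 0.07 on the log2 scale (edgeR, adjusted p = 0.00155), whereas DUSP2 (0.36) and DUSP9 (-0.02) did not pass. DUSP8 had 24 reads in control and 22 with TGF-β1 on its primary entry. Summed over its 3 entries, the control libraries held 20, 36 and 21 reads and the TGF-β1 libraries 16, 16 and 29. Its level is uncertain, as is that of DUSP16, whose reads fell almost wholly on an entry off the primary chromosomes.

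Of 9 atypical dual-specificity phosphatases, most of which are not MAPK phosphatases, 8 were tested. Of the 8, 2 passed, both as higher, beside 44.3% of all entries tested that passed in either direction. DUSP12 rose by 0.30 and DUSP11, which acts on RNA, by 0.18 on the log2 scale. The call for DUSP11 was marginal (edgeR, adjusted p = 0.0485) and was lost under each of the 13 alternatives run, with DESeq2 (adjusted p = 0.134) among them. DUSP14 had reads only on an entry off the primary chromosomes.

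Of 10 other inhibitors of RAS and ERK signaling, 9 were tested. Of the 9, 1 passed as higher and 3 as lower, beside 44.3% of all entries tested. The median log2 fold change of the 9 was -0.15. RASA1, a GTPase-activating protein that turns RAS off, rose from 78.2 to 197 CPM (log2 fold change 1.33 ± 0.08). ERRFI1, the feedback inhibitor of the EGF receptor, fell from 165 to 83.4 CPM (-0.98 ± 0.06). RASA2 and PEBP1, a RAF inhibitor, fell by 0.32 and 0.28 on the log2 scale. SPRED3, the third SPRED, did not pass, at 0.34 (edgeR, adjusted p = 0.0571), and SPRY3, with copies on both sex chromosomes and 21 and 13 reads, was not tested.

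All 12 listed ERK target genes outside the members were tested. Of the 12, 7 passed as higher and 3 as lower, beside 44.3% of all entries tested. Their median log2 fold change was 0.31. A change of at least 2-fold that passed was found for 5 of the 12, beside 9.06% of all entries tested. PHLDA1 fell from 359 to 114 CPM (-1.65 ± 0.05), and the transcription factors FOSL1 (-1.47) and ETV1 (-1.17) fell with it. EPHA4 (1.03), FOS (0.84) and CCND1, the cyclin D1 gene (0.35), rose. IER3 also rose (3.32), but its reads were spread over 6 entries on copies of its locus, so its value is uncertain. Summed over those entries, the control libraries held 56, 80 and 64 reads and the TGF-β1 libraries 545, 408 and 351.

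The core of the RAS-ERK cascade held 18 listed genes, of which 17 were tested. Of the 17, 4 passed as higher and 1 as lower, beside 44.3% of all entries tested. The median log2 fold change of the 17 was 0.09. The scaffold KSR1 (0.68), the adaptor SHC1 (0.66), NRAS (0.30) and MAP2K1, which encodes the ERK kinase MEK1 (0.23), rose, and the RAS exchange factor SOS1 fell (-0.22). With total counts alone the split was 3 higher and 2 lower. MAP2K1 was then not called. The call for SOS1 was lost in edgeR without control replicate 2 (adjusted p = 0.0856), without control replicate 3 (0.156) or without TGF-β1 replicate 3 (0.0623). HRAS, with 6, 55 and 67 reads in control and 193, 22 and 140 with TGF-β1, spread widely within each group and did not pass, at 1.47 ± 1.12 on the log2 scale (edgeR, adjusted p = 0.36), and its value is uncertain. RPS6KA1 was split in the same way as DUSP16.

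The p38 and JNK cascades include the p38 and JNK kinases, on which DUSP1 and DUSP10 act. They held 14 tested genes, of which 4 passed as higher and 6 as lower, beside 44.3% of all entries tested. Their median log2 fold change was -0.11. The largest falls were those of the p38 activator MAP2K6 (-1.91), from 0.805 to 0.215 CPM, the stress kinase MAP3K5 (-1.90), from 102 to 27.5 CPM, the p38 substrate MAPKAPK3 (-1.43) and p38γ, encoded by MAPK12 (-0.88). MAPK13 (0.50), MAPK9 (0.29), MAP3K7 (0.21) and MAP2K4 (0.18) rose. With total counts alone the split was 2 higher and 7 lower, and MAP3K7 and MAP2K4 were not called. In edgeR, MAP3K7 also lost its call without control replicate 1 (adjusted p = 0.0510) and came to lie just above 0.05 without control replicate 2, and MAP2K4 with DESeq2 and in 5 of the 6 fits that left out a library (edgeR, adjusted p up to 0.167).

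**Figure D5:**
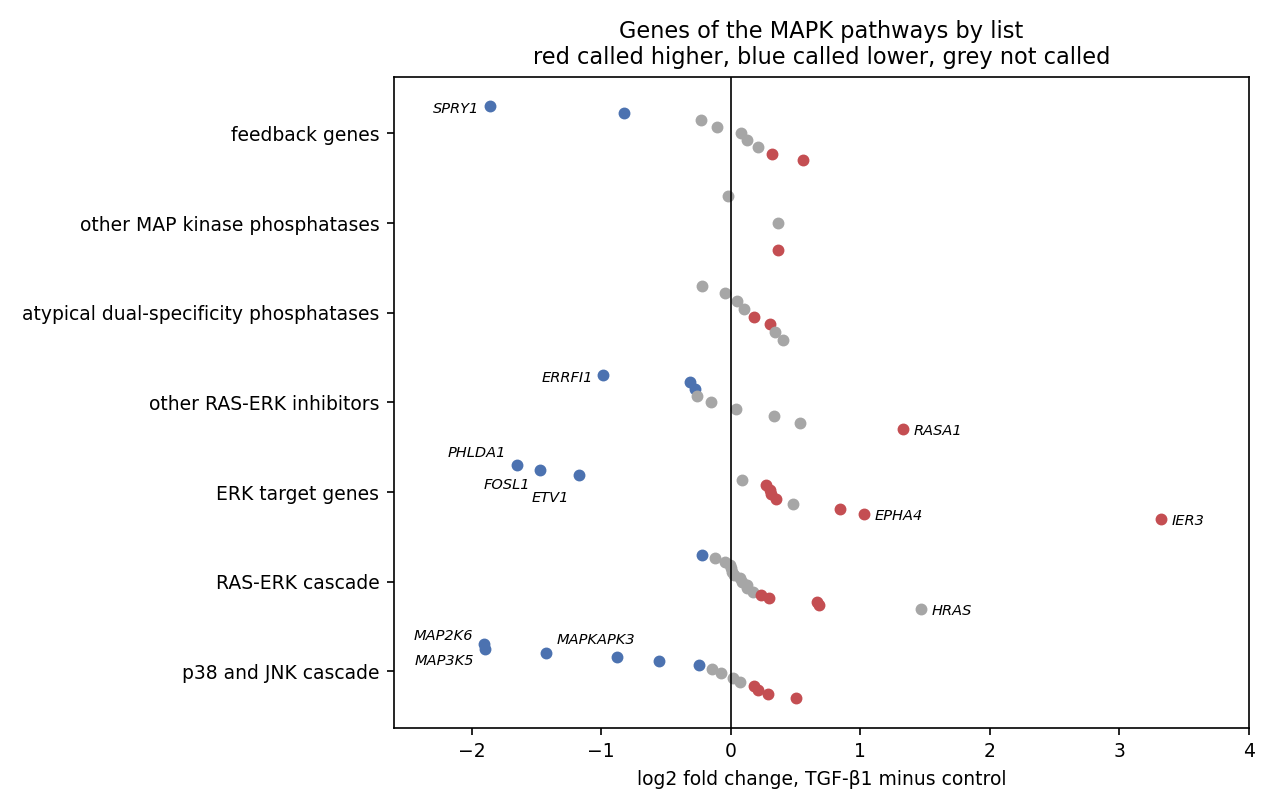
Log2 fold change (TGF-β1 minus control, horizontal axis) of each tested gene of the members and of 6 other MAPK pathway lists (rows), in red where called higher, blue where called lower and grey where not called. Each list except the 2 phosphatase lists holds genes called in both directions, and SPRY1, at -1.86, is the tested member farthest from 0.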

How the data were processed

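RNA was measured in 3 control and 3 TGF-β1 libraries of HK-2 cells at 24 h. Per the labels, poly(A) RNA was captured on oligo(dT) beads and primed with random hexamers. The submitters' processing notes name CASAVA, featureCounts 2.0.1, DESeq2 1.16.1 and hg38. The aligner and the annotation release are not given in the sources used here. Each deposited table gave raw counts per gene with TPM and FPKM computed by the authors. Broken records, 7 per library, were rejoined. Loci without a name, at 0.396% to 0.464% of counts, were left out.

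Raw counts of all named entries were tested with edgeR 4.0.16 in R 4.3.3 (filterByExpr with a minimum count of 10, TMM, robust quasi-likelihood fit, two-sided, Benjamini-Hochberg over 14860 entries, threshold 0.05). The SE of a log2 fold change was worked back as its size over the square root of the F statistic, since edgeR reports none. Intervals at 95% were built from this SE with the fit's own degrees of freedom. The edgeR step was tested on simulated data in which few genes changed, as many upward as downward. That test therefore could not check the scaling where many genes change. CPM, ratios, sums and promoter matches were computed with Python 3.11.15, pandas 2.3.3 and scipy 1.17.1. Promoter sequences came from RefSeq on GRCh38.p14. Alternatives were DESeq2 1.42.0, limma-voom (limma 3.58.1), other scalings and filters, the replicate number as a block, and fits that each left out 1 library.

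The members and lists were chosen with earlier results of these data known. All members are named, and from each other list up to 4 rises and 4 falls of largest size among those that passed. Results outside this rule, such as single genes that did not pass, were named after their values were seen. A gene of the list that checked the cytokine response is not reported here.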

Additional observations from a re-analysis of the deposited data

How the results depend on the processing

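DUSP1, DUSP5, DUSP10 and SPRY1 kept their direction and passed the test under DESeq2, limma-voom, RLE size factors, total counts alone, no count filter, a mean of at least 50 counts, the replicate block and in all 6 fits that left out a library. Leaving out a library, log2 fold changes ranged from 0.51 to 0.59 for DUSP1, from -0.86 to -0.77 for DUSP5 and from 0.26 to 0.37 for DUSP10, and 4 to 5 members passed, the fifth being SPRED1 without TGF-β1 replicate 1. With total counts alone SPRED2 changed sign, to -0.026 (adjusted p = 0.758), and 6 members passed. The 2 calls among the atypical phosphatases became 1 under DESeq2, limma-voom, RLE size factors, total counts alone and a mean of at least 50 counts, and 1 to 2 when a library was left out. DUSP11 passed in none of the 13 alternatives. The count was still 2 with no count filter, with the replicate block and without TGF-β1 replicate 2. In those fits another gene of the list had taken the place of DUSP11. Over all entries, 5290 to 7138 passed when a library was left out, against 6582.

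Same-numbered libraries did not deviate together (correlations 0.11, -0.01 and 0.08), so the numbers were not taken as pairs. With the replicate block 4 members and 6790 entries passed. For the ratios of members the exact paired sign-flip test could not go below p = 0.25. Depth limited DUSP4, whose interval spans a ratio of 1, and SPRY1 with TGF-β1, at 29 to 34 reads a library.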
